A study of Mus musculus with 24 samples.

Results

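The comparison described here set the livers of GW3965-treated floxed mice against those of vehicle-treated floxed mice, all after removal of most of the small bowel. Its members are 6 liver RNA-sequencing libraries, chosen by their labels, out of 24 in the series and 12 from liver. The GW3965 group was 3 libraries from C57BL/6 mice of genotype Abca1 fl/fl, without a Cre transgene, that had undergone 75% small bowel resection and were sampled at 10 weeks. Over the last 5 of those weeks these mice were dosed orally with the agonist (1 mg/kg/day on 2 days of each week) in 0.5% carboxymethyl cellulose. The vehicle group was 3 libraries from mice of the same strain, genotype, surgery and sampling time that received the vehicle alone. Both groups therefore carried the floxed Abca1 allele and the resection, and no unoperated liver enters this comparison. A floxed allele without Cre is intact, so Abca1 can be transcribed in every cell of these livers. The 6 liver libraries from mice that also carried Villin-Cre, a transgene that drives the recombinase in the intestinal epithelium, were used only to share the estimate of spread and for a closing contrast. The sources used here give neither age nor sex, nor the animal behind each library, and the library-to-library spread that the p-values rest on may therefore be technical.

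Total assigned reads ran from 26.4 to 30.2 M (M being 1000000 reads) in the GW3965 libraries and from 27.6 to 30.4 M in the vehicle libraries. Levels are counts per M assigned reads (CPM), and fold changes are GW3965 over vehicle on the log2(CPM + 0.5) scale, which understates changes of low genes. All 15 of the listed hepatocyte markers found in the table, albumin (Alb) among them, were expressed in every library, as the liver label requires. The 3 GW3965 libraries were not equally alike. GW3965 replicate 1 differed from replicates 2 and 3 by 13 to 13.1 times the variance of read sampling (median over genes), whereas the 10 other pairs of liver libraries within a group differed by 2.56 to 3.62 times. Replicate 1 also differed from the vehicle libraries by 21.4 to 22.3 times the sampling variance, and replicates 2 and 3 by 16.7 to 17.6 times. The members the results turn on are therefore given with the value in each library, and a fold change that stands alone is the fit over all 3 GW3965 libraries.

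GW3965 is a synthetic ligand that activates the liver X receptors, LXR-alpha (Nr1h3) and LXR-beta (Nr1h2), nuclear receptors that bind oxysterols and sense the cholesterol content of a cell. When activated they raise the cholesterol exporters Abca1, Abcg1, Abcg5 and Abcg8, and in hepatocytes they raise the lipogenic program of Srebf1, Scd1 and Fasn. Through Mylip, a ubiquitin ligase, they also limit cholesterol uptake, and in macrophages they restrain inflammatory genes. The comparison asks what the agonist did to the liver after bowel loss when Abca1 was intact.

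Of 17520 genes tested, 30.1% passed the test: 1814 (10.4%) were higher and 3451 (19.7%) were lower in GW3965 than in vehicle livers (limma, adjusted p under 0.05). Counts of calls in the lists below are to be read beside these shares. After rescaling by the median of gene ratios, the share of calls that were higher moved to 44.8% from 34.45%, with 2347 higher and 2892 lower, and the median log2 fold change over all genes moved by 0.05. Non-overlap of the 3 GW3965 and 3 vehicle libraries was found for 14.5% of genes with GW3965 above and 24.6% with GW3965 below. A stricter set, called the consistent set below, needed a call, no overlap, and at least 1.5-fold in the same direction in replicate 1 and in the mean of replicates 2 and 3, which share the vehicle libraries. It holds 351 higher genes (2.0%) and 596 lower genes (3.4%). Leaving out replicate 1 gave 2733 higher (15.6%) and 4090 lower genes (23.3%). When libraries that lay close together were averaged to 1 unit each, 3 genes were higher, Npr2 among them, and 3 were lower, namely Scd2, Slc7a11 and Psat1, so nearly every call below rests on counting those libraries separately. Lists below with 0 calls in a direction had 0 there at an unadjusted p under 0.05 and with voom on the recovered reads too, apart from 1 higher gene at the unadjusted level in each of the ATF4, PPAR-alpha and Kupffer cell lists. In whole-tissue RNA, fewer cells of a type and less RNA per cell cannot be told apart.

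**Figure D1:**
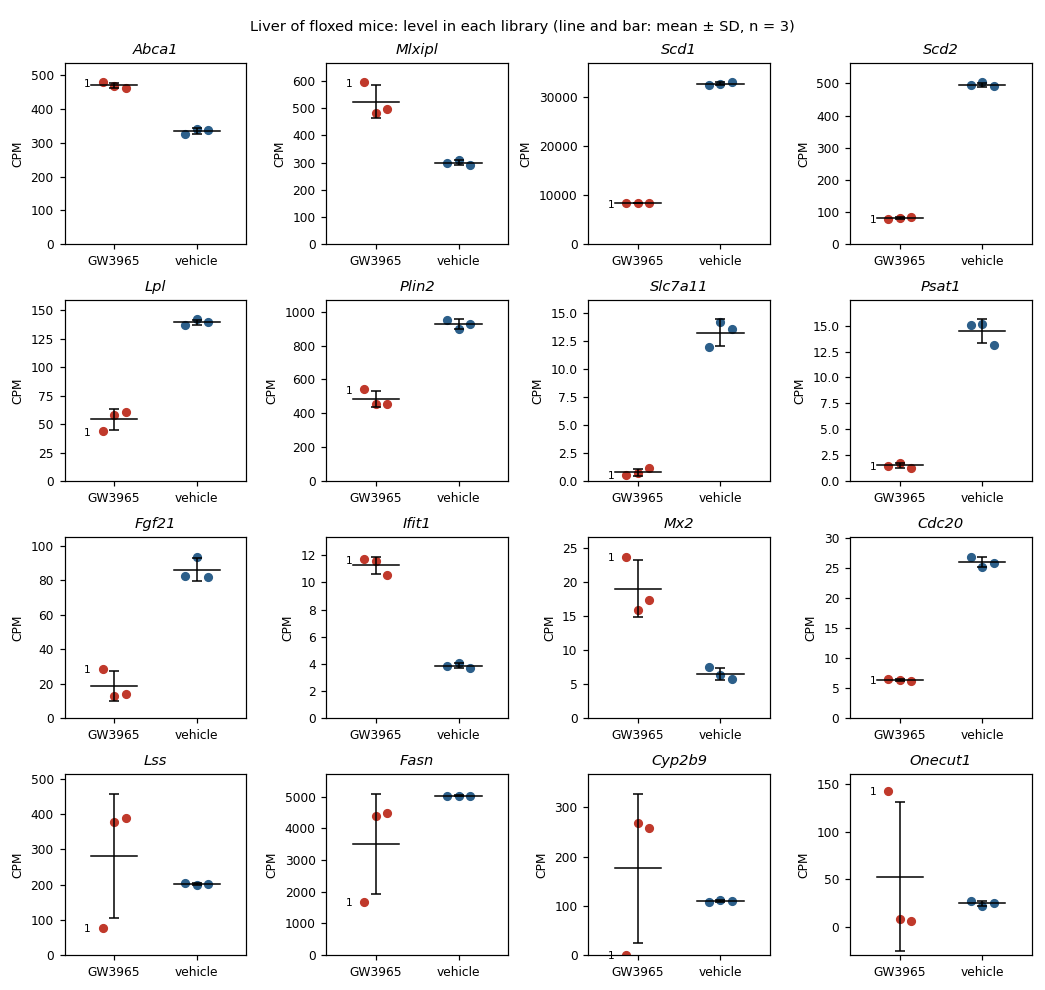
Level in CPM (linear axis) of 16 genes in each liver library, GW3965 on the left and vehicle on the right of each panel; points are libraries, the digit marks GW3965 replicate 1, and the line and bar are the mean ± SD (n = 3). Abca1 and Mlxipl lie higher and Scd1, Scd2, Slc7a11 and Psat1 lower in all 3 GW3965 libraries, while for Lss, Cyp2b9 and Onecut1 replicate 1 lies on the other side of the vehicle libraries from replicates 2 and 3.

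The receptor's own target Abca1 was higher, and the desaturases Scd1 and Scd2 were lower. Abca1, which exports cholesterol to lipid-poor apolipoprotein A-I (chromosome 4, 53030787 to 53159895, minus strand, GRCm38), had 479, 467 and 464 CPM in GW3965 livers, against 327, 342 and 337 CPM in vehicle livers. All GW3965 libraries lay above all vehicle libraries, with a log2 fold change of 0.49 ± 0.04 (SE; limma, adjusted p = 5.9e-07), below the 1.5-fold needed for the consistent set. Mlxipl, which encodes the glucose-responsive lipogenic factor ChREBP, had 595, 484 and 495 CPM with GW3965, against 298, 309 and 291 CPM with vehicle. This gene was in the consistent set, at 0.80 ± 0.07 (adjusted p = 9.5e-07), with replicate 1 the highest. Apoc1, an apolipoprotein, rose by 0.19 on the log2 scale (adjusted p = 0.021) and was the remaining higher target, but its call was lost without replicate 2 (0.068) or replicate 3 (0.077), and its difference from vehicle was 0.06 in replicate 1 and 0.26 in the mean of the other pair.

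Scd1, the stearoyl-CoA desaturase that makes monounsaturated fatty acids (chromosome 19, 44394455 to 44407879, minus strand), had 8317, 8376 and 8401 CPM in GW3965 livers, against 32553, 32814 and 33081 CPM in vehicle livers. Its paralog Scd2 had 78.9, 81.6 and 83.9 CPM with GW3965, against 496, 503 and 491 CPM with vehicle. Both genes were low in every GW3965 library, and replicate 1 lay with the others, at log2 fold changes of -1.97 ± 0.07 for Scd1 (adjusted p = 6e-10) and -2.60 ± 0.04 for Scd2 (adjusted p = 2.9e-14). Lpl, the lipase that frees fatty acids from lipoproteins, had 43.6, 57.9 and 60.7 CPM with GW3965, against 137, 142 and 139 CPM with vehicle, and fell by 1.37 ± 0.09 (adjusted p = 1.6e-07). Pnpla3, a lipid droplet protein, fell by 1.79 and Mylip by 0.97, both in the consistent set (adjusted p = 0.00069 and 4.1e-05). In replicate 1 and in the mean of the other pair Pnpla3 lay at -2.89 and -1.25 from vehicle, and Mylip at -0.59 and -1.17. Smaller declines were called for the cholesterol exporter Abcg1 (-0.58), the phospholipid-remodelling enzyme Lpcat3 (-0.53), Srebf1 (-0.21) and Nr1h2 (-0.15). Lpcat3 lay at -0.88 in replicate 1 and -0.35 in the other pair. The call of Nr1h2 was lost after rescaling, with an adjusted p of 0.1. Of the 24 LXR targets tested, 3 rose and 9 fell, of which 1 and 5 were in the consistent set. After rescaling 6 rose and 8 fell, and without replicate 1 these numbers were 8 and 11. Targets short of the threshold included the sterol exporter Abcg5, with 53.01, 79.3 and 79.04 CPM in GW3965 livers, against 65.5, 62.2 and 64.3 CPM in vehicle livers. For Abcg5 replicates 2 and 3 lay above every vehicle library and replicate 1 below. Apoe, the apolipoprotein that carries lipid out of macrophages and hepatocytes, had a log2 fold change of 0.22 ± 0.08 (adjusted p = 0.054), the receptor gene Nr1h3 0.11 ± 0.05 (0.11) and Abcg8, the partner of Abcg5, 0.19 ± 0.09 (0.12). These 3 passed after rescaling (0.016, 0.03 and 0.041), and are the further higher genes counted there. Pltp, Arl4c, Smpdl3a, Cd5l and Slc2a4 did not pass the threshold, with adjusted p of 0.084, 0.096, 0.074, 0.27 and 0.3.

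Genes of fatty acid and triglyceride synthesis had 3 of 21 members higher, 10 lower and 8 not past the threshold, with a median log2 fold change of -0.49, against -0.04 over all genes tested. The desaturases Fads1 and Fads2, which make long-chain polyunsaturated fatty acids, had 1144, 905 and 886 CPM and 1152, 999 and 1019.8 CPM with GW3965, against 1758, 1743 and 1739 CPM and 1918, 1947 and 1925 CPM with vehicle. The elongase Elovl5 had 1049, 1109 and 1106 CPM with GW3965, against 1797, 1849 and 1884 CPM with vehicle. These 3 enzymes stood below the vehicle libraries in all GW3965 libraries (adjusted p = 2e-06, 6.7e-08 and 3.4e-08). For the enzymes that build the saturated chain, replicate 1 was far lower than the others. Fasn, fatty acid synthase, had 1680.3, 4377 and 4469 CPM with GW3965, against 5025, 5033 and 5014 CPM with vehicle, and did not pass the threshold (-0.65 ± 0.25, adjusted p = 0.07). Acly, which supplies cytosolic acetyl-CoA, had 258, 887 and 884 CPM with GW3965, against 1094, 1115 and 1096 CPM with vehicle, and its call (adjusted p = 0.046) was lost after rescaling (0.053). Acaca, Elovl6 and the malic enzyme Me1 fell by 0.76, 0.99 and 1.04. The higher members beside Mlxipl were Dgat2, which completes triglycerides (0.34 ± 0.05), and Elovl3, whose 106, 21.4 and 20.6 CPM with GW3965 stood against 8.797, 7.39 and 8.78 CPM with vehicle. Without replicate 1 the list gave 6 higher and 13 lower genes.

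Of 16 genes of the lipid droplet, its coats and lipases among them, 6 were lower, 2 were higher and 8 did not pass the threshold, and 5 of the lower ones were in the consistent set. Plin2, the main droplet coat of hepatocytes, had 541, 457 and 455 CPM in GW3965 livers, against 953, 899 and 927 CPM in vehicle livers. This put all 3 GW3965 libraries well below vehicle, at -0.94 ± 0.06 (adjusted p = 1.2e-07). Cidec, which fuses droplets, had 35.3, 9.16 and 7.67 CPM with GW3965, against 55.4, 56.2 and 56.7 CPM with vehicle, with replicates 2 and 3 the lowest. Hilpda, an inhibitor of droplet lipolysis, fell by 0.92 (adjusted p = 0.00012). The lipase Lipe and the droplet-forming gene Fitm1 rose by 0.48 and 0.53 (adjusted p = 0.0019 and 0.041), and Fitm1 did not pass without replicate 1 (0.084). Without that library 10 genes of this list were lower and 3 higher.

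Fatty acid oxidation genes driven by PPAR-alpha, the receptor that answers to fatty acids in the fasted liver, were lower in 19 of 26 cases and higher in 0, with a median of -0.23. Of the 19 lower genes 5 were in the consistent set. After rescaling 14 were lower and 1 was higher. Ehhadh, a peroxisomal oxidation enzyme, had 336, 482 and 474 CPM with GW3965, against 910.3, 925 and 953 CPM with vehicle. Pdk4, a pyruvate dehydrogenase kinase, had 21.8, 30.4 and 29.6 CPM with GW3965, against 54.7, 54.8 and 56.5 CPM with vehicle. Both stood lower in all 3 libraries, at -1.13 ± 0.10 (adjusted p = 1.7e-06) and -1.02 ± 0.10 (adjusted p = 3.4e-06). The thioesterase Acot2 fell by 1.02, and the carnitine transferases Cpt1a and Cpt2 by 0.24 and 0.20, the call of Cpt2 being lost after rescaling (0.058). Ppara itself had 231, 190.2 and 206 CPM with GW3965 and 188, 189 and 189 CPM with vehicle (adjusted p = 0.076). Genes of the Cyp4a and Acot clusters are near-identical copies, so reads can be divided among them and their values are uncertain.

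**Figure D2:**
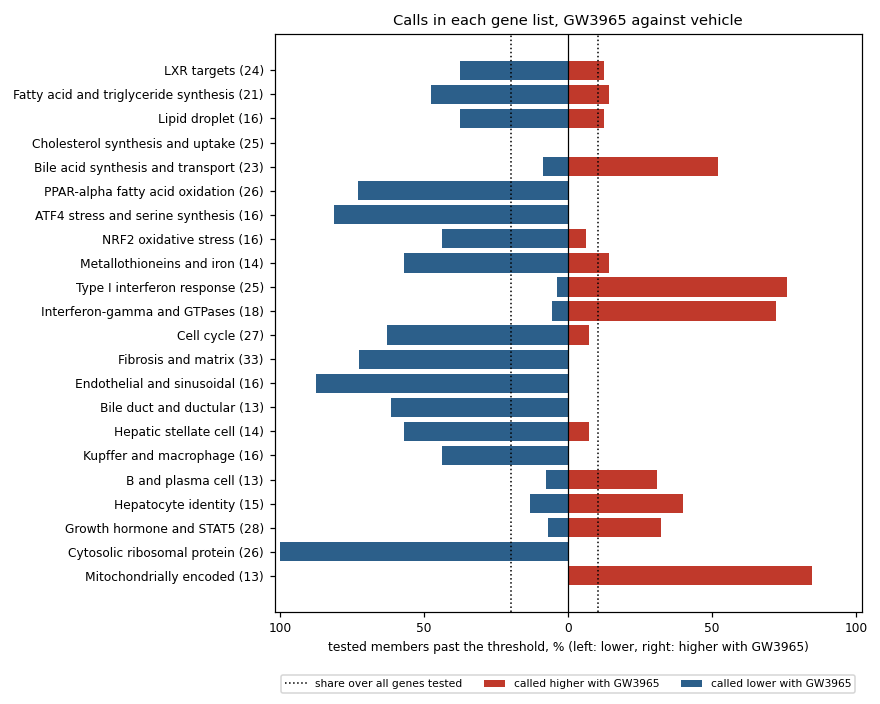
Share of the tested members of each of 22 gene lists that were higher (right) or lower (left) in GW3965 than in vehicle livers, in percent, with the number tested in brackets; dotted lines mark the shares over all genes tested. Interferon lists and mitochondrially encoded genes reach furthest right among the lists drawn, and ribosomal protein, endothelial, ATF4, PPAR-alpha and matrix lists furthest left.

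Cholesterol synthesis genes did not move one way: replicate 1 lay below the vehicle mean and replicates 2 and 3 above it in 24 of 25 genes, against 16.8% of all genes tested. Of the 25, 0 passed the test in either direction (limma), 0 had an unadjusted p under 0.05, and 0 passed with voom on the recovered reads. At the list's median, replicate 1 stood at -0.91 and the other pair at 0.53 from vehicle on the log2 scale. Lss, which closes the sterol rings, had 77.8, 378 and 389 CPM with GW3965, against 205, 199.6 and 201 CPM with vehicle. Hmgcs1, an early synthase of the pathway, had 426, 1902 and 1894 CPM with GW3965, against 1009.8, 1029 and 1069 CPM with vehicle. Replicate 1 was the lowest of the 6 libraries for both genes and replicates 2 and 3 were the highest. Without replicate 1, 24 genes of the list were called higher and 0 lower, and with replicate 1 as the only GW3965 library all 25 were called lower. A fit with that lone library assumes that it varies like the libraries of the other groups, which may be technical repeats, so those calls show what 1 library held and no replicated response.

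**Figure D3:**
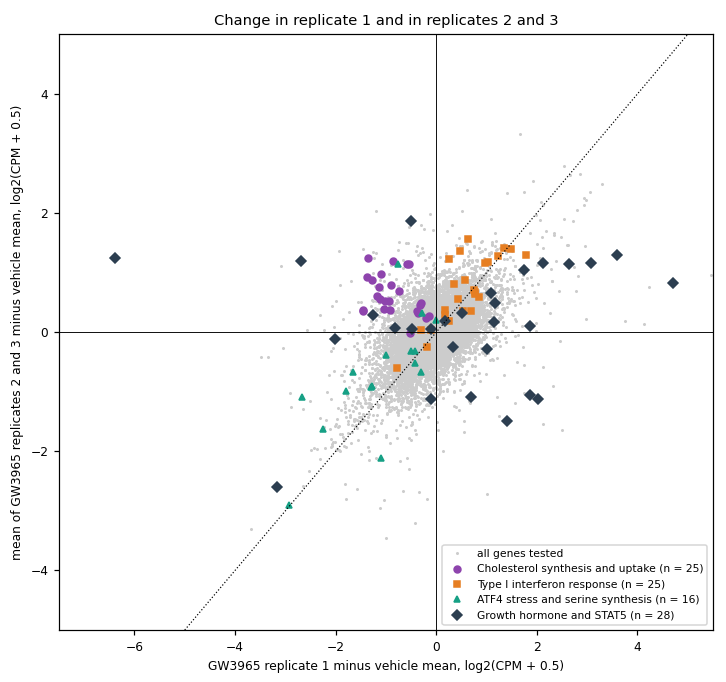
Difference from the vehicle mean, log2(CPM + 0.5), in GW3965 replicate 1 (horizontal axis) and in the mean of replicates 2 and 3 (vertical axis), both against the same 3 vehicle libraries; small points are all genes tested and symbols are 4 lists, and the dotted line marks equal differences. Cholesterol genes gather at upper left, interferon genes at upper right and ATF4 genes at lower left; the horizontal axis ends at 5.5 and the vertical axis at 5.

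Bile acid genes were mostly higher: 12 of 23 rose, 2 fell, and the median was 0.18. In the consistent set were 3 of the higher and 1 of the lower genes. Nr0b2, the repressor SHP that the bile acid receptor FXR induces, had 34.1, 39.2 and 42.5 CPM in GW3965 livers, against 14.8, 15.4 and 16.8 CPM in vehicle livers. Each GW3965 library was over the highest vehicle library, at 1.27 ± 0.08 (adjusted p = 1.1e-07). Cyp7b1, of the alternative synthesis pathway, had 61.9, 40.2 and 36.1 CPM with GW3965, against 17.3, 18.3 and 18.8 CPM with vehicle, and rose by 1.28 ± 0.15 (adjusted p = 2.1e-05). Slc10a1 and Slco1b2, which take bile acids and organic anions up from blood, rose by 0.42 and 0.40, and Baat, which conjugates bile acids, by 0.53. Cyp7a1, the rate-limiting enzyme of the classical pathway, had 126, 325 and 321 CPM with GW3965 and 236, 263 and 249 CPM with vehicle, so replicate 1 and the other pair lay on opposite sides of vehicle. The basolateral exporter Abcc4 fell by 1.19 ± 0.26 and was in the consistent set. Without replicate 1, 15 genes were higher and 4 lower.

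Genes of amino acid stress and serine synthesis under the factor ATF4 fell in 13 of 16 cases, 8 of them in the consistent set, with 0 higher and a median of -0.79. Psat1, the serine-synthesis transaminase, had 1.47, 1.74 and 1.29 CPM in GW3965 livers, against 15.1, 15.2 and 13.1 CPM in vehicle livers. Asns, asparagine synthetase, had 1.96, 6.32 and 7.64 CPM with GW3965, against 14.1, 14.97 and 16.8 CPM with vehicle. Psat1 was about equally low in all 3 GW3965 libraries (-2.91 ± 0.09, adjusted p = 2.3e-10), whereas Asns was lowest in replicate 1 (-1.61 ± 0.30, adjusted p = 0.001). The mitochondrial folate enzyme Mthfd2 fell by 1.83, the stress factor Atf3 by 1.77, the mTORC1 inhibitor Ddit4 by 1.25 and Atf4 itself by 0.35. Atf3 was lower in the other pair (-2.11 from vehicle) than in replicate 1 (-1.09), and Ddit4 was lower in replicate 1 (-1.80) than in the other pair (-0.98). Members short of the threshold were Gdf15, Shmt2 and Vldlr, and without replicate 1 these 3 were called higher.

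The hormone Fgf21, which ATF4 and PPAR-alpha both induce in liver (chromosome 7, 45613886 to 45615490, minus strand), had 28.6, 12.8 and 14.2 CPM in GW3965 livers, against 82.5, 93.7 and 82.03 CPM in vehicle livers. All GW3965 libraries were far below vehicle, at -2.27 ± 0.20 (adjusted p = 1.8e-06), with replicate 1 the least low. Slc7a11, the cystine importer (chromosome 3, 49892526 to 50443614, minus strand), had 0.567, 0.674 and 1.16 CPM with GW3965, against 11.9, 14.2 and 13.5 CPM with vehicle. Among the leading genes of the consistent set this was the largest decline, at -3.42 ± 0.13 (adjusted p = 6e-10). Both genes carry the C/EBP-ATF response element TGATGCAA in the 250 bases before their RefSeq start (RefSeq, GRCm38.p6). They are shown because, among the leading lower genes, they are the ones with a match. The windows are chr3:50443614-50443863 for Slc7a11 and chr7:45615491-45615740 for Fgf21, both on the minus strand and written 5′ to 3′ along the gene, with matches on either strand in capitals.
Slc7a11: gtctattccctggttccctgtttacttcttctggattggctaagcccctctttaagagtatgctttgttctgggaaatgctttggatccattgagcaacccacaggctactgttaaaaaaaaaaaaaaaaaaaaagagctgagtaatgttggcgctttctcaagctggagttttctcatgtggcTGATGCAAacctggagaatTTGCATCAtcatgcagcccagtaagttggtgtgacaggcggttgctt
Fgf21: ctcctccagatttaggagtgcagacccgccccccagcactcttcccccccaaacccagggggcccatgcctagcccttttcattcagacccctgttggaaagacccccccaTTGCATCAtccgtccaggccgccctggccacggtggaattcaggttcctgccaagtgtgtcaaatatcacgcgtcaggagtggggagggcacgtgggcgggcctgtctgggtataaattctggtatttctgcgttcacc
Slc7a11 has 2 matches, 1 on each strand, and Fgf21 has 1. The letters occur in 0.791% of 32851 upstream windows and in 2 of the 9 leading lower genes with a window, which are these 2. They occur in 3 of the 16 ATF4 members, namely 2 of the 13 called lower and 1 of the 3 not called. A match is a description of letters, and binding was not measured.

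Oxidative stress genes under NRF2 were lower in 7 of 16 cases and higher in 1, with 2 of the lower genes in the consistent set. At the list's median, replicate 1 stood at -0.76 and the other pair at -0.04 from vehicle on the log2 scale. Without replicate 1, 3 genes were higher and 7 lower. Beside Slc7a11, the peroxiredoxin repair enzyme Srxn1 had 50.6, 68.5 and 68.8 CPM with GW3965, against 164, 172 and 172 CPM with vehicle, below vehicle in all libraries (-1.44 ± 0.09, adjusted p = 6.7e-08). Txnrd1, thioredoxin reductase, fell by 0.58, and the glutathione genes Gclc and Gsr by 0.41 and 0.40. Nqo1, the usual marker of this factor, had 4.04, 14.6 and 14.6 CPM with GW3965 and 16.4, 13.98 and 14.1 CPM with vehicle, so only replicate 1 was low and the gene did not pass (adjusted p = 0.18). The zinc-binding metallothioneins Mt1 and Mt2 had 7.82, 11.8 and 12.2 and 2.91, 3.37 and 3.41 CPM with GW3965, against 26.5, 28.7 and 30.97 and 12.02, 15.2 and 14.2 CPM with vehicle. Both fell, Mt1 by 1.42 (adjusted p = 1.2e-06) and Mt2 by 1.94 (adjusted p = 1.6e-09). In the list of metallothioneins and iron genes 8 of 14 fell and 2 rose. Hamp, the iron hormone hepcidin, fell by 0.35, and the transferrin receptor Tfrc rose by 0.36 (adjusted p = 3.7e-05 and 0.0075).

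Most of the listed interferon-stimulated genes were higher with GW3965. Of 25 genes of the type I response 19 were higher and 1 was lower, 11 of the higher genes were in the consistent set, and the median was 0.69. The counts were again 19 and 1 without replicate 1 and after rescaling, and 18 and 1 with replicate 1 as the only GW3965 library. Ifit1, which binds viral RNA (chromosome 19, 34640871 to 34650009, plus strand), had 11.7, 11.6 and 10.5 CPM in GW3965 livers, against 3.87, 4.04 and 3.71 CPM in vehicle livers. The groups were well apart, at 1.43 ± 0.10 (adjusted p = 2.4e-07). Mx2, of an antiviral GTPase family but annotated as a polymorphic pseudogene, had 23.7, 15.9 and 17.3 CPM with GW3965. With vehicle it had 7.49, 6.34 and 5.75 CPM (1.46 ± 0.14, adjusted p = 2.7e-06). Ifit3 had 15.9, 18.3 and 18.5 CPM with GW3965, against 8.62, 7.52 and 7.59 CPM with vehicle, and Isg15, a ubiquitin-like modifier, 7.29, 15.5 and 13.3 CPM, against 4.92, 5.42 and 3.404 CPM. For Isg15 replicate 1 was nearest to vehicle, and its value still exceeded the highest vehicle library. Irf9 and Stat2, subunits of the factor that binds interferon response elements, rose by 0.71 and 0.41 (adjusted p = 6.7e-07 and 5.5e-05). Bst2, or tetherin, was the lower member (-0.66 ± 0.06), and Irf7 had 73.98, 80.2 and 82.3 CPM with GW3965 and 76.1, 77.97 and 83.8 CPM with vehicle (adjusted p = 0.94).

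The core of the interferon-stimulated response element, GAAANNGAAA, was searched on both strands in the same 250-base windows. It occurs in 2.98% of the 32851 windows, in 10 of 19 type I genes with a window, and in 7 of the 13 called higher. Windows of 3 of the higher genes are printed, since they carry more than 1 match each. They are chr19:34640639-34640888 (plus strand) for Ifit1, chr19:34583279-34583528 (plus strand) for Ifit3 and chr4:156200819-156201068 (minus strand) for Isg15, with matched bases in capitals.
Ifit1: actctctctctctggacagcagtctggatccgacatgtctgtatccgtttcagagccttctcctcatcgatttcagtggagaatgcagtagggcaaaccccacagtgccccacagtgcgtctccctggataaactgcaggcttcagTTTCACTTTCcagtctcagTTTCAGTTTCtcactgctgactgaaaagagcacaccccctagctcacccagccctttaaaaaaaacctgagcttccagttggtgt
Ifit3: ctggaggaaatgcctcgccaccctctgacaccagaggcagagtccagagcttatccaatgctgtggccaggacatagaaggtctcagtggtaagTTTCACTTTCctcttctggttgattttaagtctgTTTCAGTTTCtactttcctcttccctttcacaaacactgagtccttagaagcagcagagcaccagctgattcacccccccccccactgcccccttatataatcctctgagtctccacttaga
Isg15: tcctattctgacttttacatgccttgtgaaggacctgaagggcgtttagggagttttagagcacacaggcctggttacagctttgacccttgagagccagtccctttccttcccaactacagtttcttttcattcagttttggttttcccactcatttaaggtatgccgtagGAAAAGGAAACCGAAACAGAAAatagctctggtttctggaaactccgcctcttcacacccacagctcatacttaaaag
The 2 matches of Ifit1 and of Ifit3 are separate, and the 3 of Isg15 each overlap the next. The motif is also present in the window of Bst2, which was lower, and in 2 of the 5 members with a window that were not called.

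Interferon-gamma targets and immunity GTPases rose in 13 of 18 cases and fell in 1, with a median of 0.45. In the consistent set were 2 of the higher genes and the lower gene. Nlrc5, the activator of MHC class I genes, had 94.8, 106 and 103 CPM with GW3965, against 61.6, 61.9 and 64.8 CPM with vehicle (0.68 ± 0.05, adjusted p = 3.6e-07). The peptide transporter Tap1 and the GTPases Irgm1 and Igtp rose by 0.57, 0.61 and 0.69. The lower gene was the chemokine Cxcl9, with 10.7, 10.6 and 11.05 CPM with GW3965, against 16.3, 18.6 and 15.8 CPM with vehicle. Members of the Ifit, Oas, Gbp and Irgm families share sequence, so single-gene values within them are uncertain. Cells that carry these genes need not be hepatocytes, and their source was not tested.

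**Figure D4:**
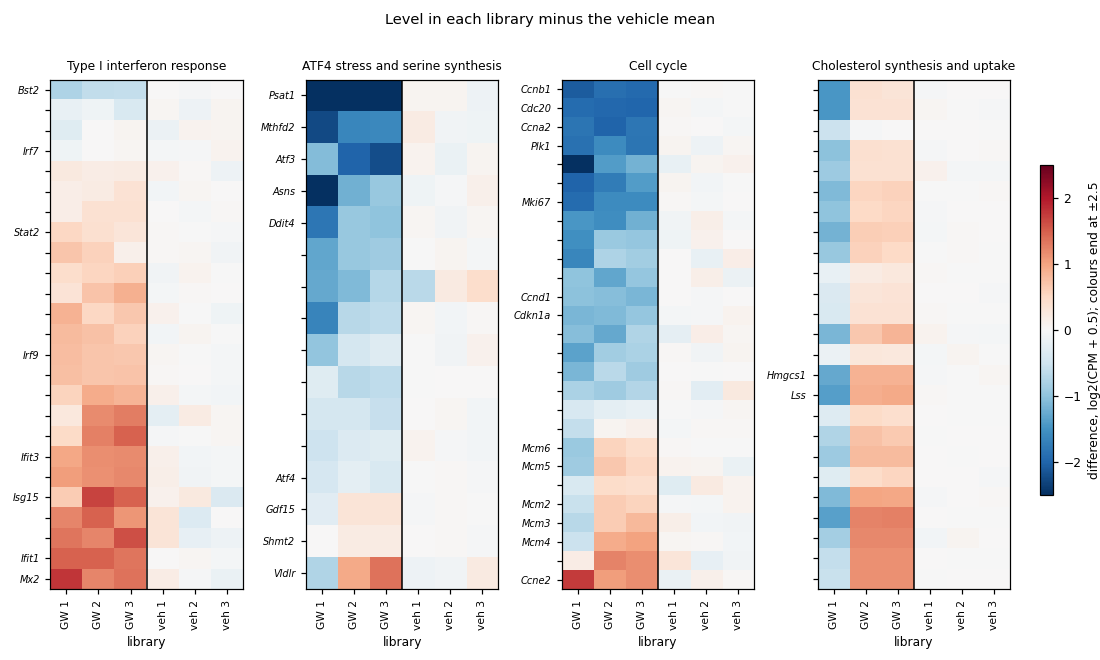
Level of each member of 4 gene lists in the 3 GW3965 libraries (left of each line) and the 3 vehicle libraries (right), as the difference from the vehicle mean in log2(CPM + 0.5); red is higher, blue is lower, colours end at 2.5 either way, and names are given for genes described in the text. Most interferon genes are red and most ATF4 and cell cycle genes blue in all 3 GW3965 libraries, while cholesterol genes are blue in replicate 1 and red in replicates 2 and 3.

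Of 27 cell cycle genes 17 were lower, all 17 of them in the consistent set, 2 were higher, and the median was -1.03. Cdc20, the activator of the anaphase-promoting complex, had 6.499, 6.28 and 6.18 CPM in GW3965 livers, against 26.97, 25.2 and 25.9 CPM in vehicle livers. Mki67, the proliferation marker, had 16.3, 21.01 and 21.1 CPM with GW3965, against 64.9, 61.7 and 63.9 CPM with vehicle. Ccnd1, cyclin D1, had 157, 153 and 145 CPM with GW3965, against 324, 316 and 324 CPM with vehicle. The groups did not overlap for any of them, at -1.96 ± 0.10, -1.69 ± 0.09 and -1.08 ± 0.04 (adjusted p = 1.2e-08, 1.3e-08 and 7.5e-10). The cyclins Ccnb1 and Ccna2, the kinase Plk1 and the p53 target Cdkn1a fell by 1.96, 1.88, 1.76 and 1.07. Replication licensing genes took another pattern. Mcm4, a subunit of the replicative helicase, had 7.44, 21.2 and 22.6 CPM with GW3965 and 11.4, 11.1 and 10.4 CPM with vehicle, and Mcm2, Mcm3, Mcm5 and Mcm6 likewise lay lower in replicate 1 and higher in replicates 2 and 3 than every vehicle library, without passing the test. Cyclin E2, Ccne2, rose by 1.32 ± 0.19 (adjusted p = 0.00012), with 14.8, 8.84 and 9.69 CPM against 3.55, 4.46 and 4.12 CPM. Without replicate 1 the list had 8 higher and 17 lower genes.

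Extracellular matrix genes were lower in 24 of 33 cases and higher in 0, with 7 in the consistent set and a median of -0.49. Thbs1, thrombospondin, had 4.46, 4.83 and 3.902 CPM with GW3965, against 10.9, 12.6 and 12.6 CPM with vehicle. Col4a1, a basement membrane collagen, had 129, 131 and 149 CPM with GW3965, against 223, 232 and 225 CPM with vehicle. Both were lower in each library, at -1.36 ± 0.08 (adjusted p = 6.7e-08) and -0.73 ± 0.05 (adjusted p = 2.5e-07). Sparc, a collagen-binding protein, fell by 0.85, and the fibrillar collagens Col3a1, Col1a1 and Col1a2 by 0.54, 0.50 and 0.47. Acta2, the marker of activated stellate cells, had 1.85, 3.12 and 3.67 CPM with GW3965 and 3.48, 3.09 and 3.54 CPM with vehicle and did not pass (adjusted p = 0.34).

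Most endothelial, stellate cell and bile duct markers tested were lower as well. Of 16 endothelial markers 14 were lower, 2 of them in the consistent set, and 0 higher (median -0.66). Their summed level was 882, 680 and 694 CPM with GW3965, against 1125 to 1149 CPM with vehicle. Kdr, the VEGF receptor of sinusoidal cells, had 68.1, 47.7 and 50.1 CPM with GW3965, against 118, 117 and 121 CPM with vehicle (-1.11 ± 0.10, adjusted p = 1.4e-06). Stellate cell markers were lower in 8 of 14 cases, 1 of these in the consistent set, and higher in 1. Their sum was 576 to 649 CPM with GW3965, against 692 to 714 CPM with vehicle. Bile duct markers were lower in 8 of 13 cases, 3 of these in the consistent set. Their sum was 275, 106 and 103 CPM with GW3965, against 215 to 222 CPM with vehicle. The high sum of replicate 1 goes with Onecut1, a liver and duct transcription factor, at 143, 8.59 and 6.81 CPM with GW3965 and 27.2, 22.6 and 25.3 CPM with vehicle. Spp1, or osteopontin, fell by 1.23 and Epcam by 1.19, both in the consistent set (adjusted p = 2.5e-07 and 0.00029). None of the 3 marker lists had a member at 0 in all libraries of either group. Their part in the matrix result was not tested.

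Kupffer cell markers differed between the GW3965 libraries. Their sum was 728, 1191 and 1205 CPM with GW3965, against 1152 to 1164 CPM with vehicle. Of the 16 markers 7 were lower, 1 of them in the consistent set. Marco, a scavenger receptor of these cells, had 17.8, 105 and 108 CPM with GW3965 and 61.9, 57.1 and 56.8 CPM with vehicle, on opposite sides of vehicle. The mannose receptor Mrc1 was lower in all libraries (63.03, 66.04 and 63.8 CPM, against 99.3, 104 and 98.3 CPM; adjusted p = 2.5e-07). Without replicate 1, 4 Kupffer markers were higher and 6 lower. Monocyte markers summed to 103 to 104 CPM with GW3965, against 173 to 180 CPM with vehicle, with Spp1 the largest part. Of 14 monocyte markers 7 were lower, 2 of them in the consistent set. Among 13 B and plasma cell genes 4 rose and 1 fell. Igha, the IgA heavy chain, had 69.7, 57.8 and 64.95 CPM with GW3965, against 28.2, 27.2 and 22.5 CPM with vehicle (1.29 ± 0.10, adjusted p = 3.7e-07), and Jchain, which joins secreted IgA and IgM, rose by 0.89. The IgM heavy chain Ighm fell by 0.86 ± 0.13 (adjusted p = 0.00015). Neutrophil markers gave 0 calls in 7 tested (limma; 0 at an unadjusted p under 0.05), and T and NK cell markers gave 1 of 16 higher.

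Hepatocyte markers summed to 56540, 64547 and 64267 CPM with GW3965, against 77908 to 80348 CPM with vehicle, and Alb was the largest part. Albumin mRNA was at 35808, 44243 and 43767 CPM with GW3965, against 58504, 56553 and 57198 CPM with vehicle, and fell by 0.48 ± 0.11 (adjusted p = 0.005). Of the 15 markers 6 were higher and 2 lower, 0 of them in the consistent set. Some enzymes of the zone around the central vein rose. Cyp2e1, an ethanol and drug oxidase, had 3982, 4459.7 and 4449 CPM with GW3965, against 2346, 2356 and 2387 CPM with vehicle. The glutamate transporter Slc1a2 had 256, 244 and 240.2 CPM with GW3965, against 133, 129 and 128 CPM with vehicle. Both were in the consistent set, at 0.86 ± 0.05 and 0.92 ± 0.05 (adjusted p = 6.1e-08 and 2.3e-08). The ornithine aminotransferase Oat and glutamine synthetase Glul rose by 0.93 and 0.43, and the drug-sensing receptor Nr1i3 by 0.79. The list as a whole did not shift: 6 of 15 rose and 2 fell, with a median of 0.0007. Without replicate 1, 6 were higher and 5 lower.

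Cytosolic ribosomal protein mRNAs were lower in 26 of 26 cases, as they were after rescaling, with a median of -0.49 (-0.44 rescaled), and 1 of them was in the consistent set. Mitochondrially encoded mRNAs went the other way, with 11 of 13 higher, 1 of them in the consistent set, and a median of 0.45. At the list's median, replicate 1 stood at 0.11 and the other pair at 0.61 from vehicle on the log2 scale. Without replicate 1, 13 of 13 were higher. mt-Cytb, a subunit of complex III, had 3626, 5492 and 5489 CPM with GW3965, against 3303, 3367 and 3385 CPM with vehicle, so replicate 1 was the nearest to vehicle. Other signs of library composition moved with the groups. The noncoding locus Gm26917 took 5.54%, 3.60% and 3.71% of reads with GW3965, against 2.80% to 2.88% with vehicle, and mitochondrial genes 2.24%, 3.10% and 3.10%, against 2.05% to 2.22%. Lars2, a mitochondrial tRNA synthetase and a leading gene by fold, had 2403, 1792 and 1271 CPM with GW3965, against 434, 284 and 252 CPM with vehicle. The mitochondrial ribosomal RNA mt-Rnr2 moved with it, at 664, 689.6 and 488 CPM with GW3965, against 115, 88.3 and 75.3 CPM with vehicle. Because ribosomal RNA was removed before sequencing, its remnants depend on that step, and their part in these values was not tested.

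Genes of glucose handling, the acute phase and the immediate early response were given by lists too. Over all genes tested 10.4% rose and 19.7% fell, the shares to set beside each count here. Of 18 glucose genes 1 rose and 4 fell, near those shares. G6pc, the phosphatase that releases glucose, had 119, 178 and 174 CPM with GW3965, against 299.8, 305 and 311 CPM with vehicle, and fell by 0.98 ± 0.11 (adjusted p = 1.6e-05). Pck1, the committing enzyme of gluconeogenesis, had 2322, 2955 and 2958 CPM with GW3965, against 1629.6, 1627 and 1644 CPM with vehicle, and rose by 0.74 ± 0.08 (adjusted p = 7.6e-06). These 2 enzymes of the same pathway thus lay on opposite sides of vehicle in every GW3965 library. Of 24 acute phase genes 7 rose and 5 fell. The serum amyloid Saa4 had 129, 156 and 143 CPM with GW3965, against 66.8, 64.2 and 70.2 CPM with vehicle, while Lcn2, an iron-sequestering lipocalin, had 13.8, 17.1 and 19.8 CPM with GW3965, against 34.6, 35.3 and 36.4 CPM with vehicle. Both were in the consistent set, at 1.08 ± 0.07 and -1.06 ± 0.09 (adjusted p = 1.2e-07 and 1.3e-06). Among 18 immediate early genes 11 fell, 3 of them in the consistent set, and 2 rose, with a median of -0.46. Myc, a growth-promoting transcription factor, had 12.3, 11.99 and 12.1 CPM with GW3965, against 23.4, 22.7 and 23.2 CPM with vehicle (-0.90 ± 0.05, adjusted p = 6.2e-08), and Jun had 86.1, 46.6 and 46.7 CPM, against 109, 109 and 109 CPM, with replicate 1 nearest to vehicle. Among 18 genes of the TLR4 and cytokine list 5 fell and 1 rose: Cd14, the lipopolysaccharide co-receptor, and Il1b fell by 0.82 and 0.77. The chemokine Cxcl1 had 2.57, 12.9 and 12.5 CPM with GW3965, against 3.15, 3.32 and 3.37 CPM with vehicle, and rose (adjusted p = 0.047) with replicate 1 below every vehicle library. Its call was lost when any 1 library other than replicate 1 was left out (adjusted p 0.1 to 0.18) and with voom (0.095). Apoa4, an apolipoprotein of fat transport, had 1239.6, 180.4 and 177 CPM with GW3965, against 1692, 1648 and 1645 CPM with vehicle, and fell by 2.28 ± 0.50 (adjusted p = 0.0033), much less in replicate 1 than in the other pair.

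Growth hormone and STAT5 targets, among them the sex-biased liver genes, gave 9 higher and 2 lower of 28, and held the widest gap with replicate 1 below the other pair, that of Cyp2b9. The female-biased Cyp2b9, a steroid hydroxylase, had 0.831, 269 and 259 CPM in GW3965 livers, against 108, 112 and 111 CPM in vehicle livers. Cish, a feedback inhibitor that STAT5 induces, had 33.5, 3.37 and 4.96 CPM with GW3965, against 13.3, 12.6 and 11.3 CPM with vehicle. The male-biased urinary protein Mup20 had 1149.9, 129 and 131 CPM with GW3965, against 270.0, 285 and 291 CPM with vehicle. For these genes replicate 1 stood on the other side of vehicle from replicates 2 and 3, and none passed the test. Further genes with wide gaps, given as a description, were Serpina12 (26.1, 1.49 and 1.49 CPM with GW3965, against 12.3, 12.6 and 12.97 CPM), Egfros (140.1, 10.4 and 10.98, against 31.5, 32.5 and 31.8 CPM) and Igfbp1, an IGF-binding protein (33.6, 253 and 262, against 339, 355 and 341 CPM). Some male-biased genes were higher in all 3 libraries: Cyp4a12a had 78.4, 41.2 and 39.7 CPM with GW3965, against 17.1, 17.7 and 18.4 CPM with vehicle (1.48 ± 0.21, adjusted p = 0.00011), and Igfals, which carries IGF-1 in blood, rose by 0.80. The urinary protein Mup1 of this list was lower in all 3, at 0.491, 1.17 and 0.794 CPM, against 10.5, 8.08 and 6.98 CPM with vehicle. Without replicate 1 the list had 14 higher and 8 lower genes. The Y-linked Ddx3y had 48.6, 57.4 and 58.8 CPM with GW3965 and 57.2, 60.5 and 60.8 CPM with vehicle, and Xist 1.28, 1.24 and 0.694 CPM with GW3965 and 0.579, 0.328 and 0.306 CPM with vehicle, both chosen after their values were seen. Xist overlaps its antisense gene Tsix, and reads of the pair cannot be told apart. Mup, Cyp2b, Cyp2c and Cyp4a genes are near-identical copies whose single-gene values are uncertain.

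By the rule for leading genes, Slc15a2, a peptide transporter, had 2.87, 9.51 and 10.7 CPM with GW3965, against 0.507, 0.558 and 0.613 CPM with vehicle, the largest increase by that rule (2.77 ± 0.33, adjusted p = 2.4e-05). The chemokine Ccl27a had 4.27, 5.43 and 4.83 CPM with GW3965, against 0.253, 0.295 and 0.408 CPM with vehicle. Npr2, the receptor of C-type natriuretic peptide, had 95.2, 89.2 and 98.2 CPM with GW3965, against 22.4, 24.5 and 24.1 CPM with vehicle. Both were near level among the GW3965 libraries, at 2.70 ± 0.21 and 1.97 ± 0.07 (adjusted p = 5.5e-07 and 6e-10). The nicotinamide methyltransferase Nnmt, the actin-binding Tpm2, and Cyp2c54 and Eps8l1 rose by 2.03, 2.13, 2.15 and 2.15, and Mup7, Mup10, Elovl3 and Fsd1 were led by replicate 1 (23.8, 1.81 and 1.62 CPM for Fsd1 with GW3965, against 0.796, 0.525 and 1.16 CPM). Calls of Mup7 and Fsd1 were lost when any 1 vehicle library was left out. Ccl27a, Tpm2 and Npr2 lie on chromosome 4 (starts 41769467, 43514711 and 43631935), which also holds the floxed Abca1 (53030787). Mup7 and Mup10, which rose, and Mup1, which fell, lie on that chromosome too. The part of this shared location in their changes was not tested. Exons of Ccl27a overlap Il11ra1 on the other strand and those of Raet1e overlap H60b and Raet1d, so their reads are uncertain. Among the lower leading genes not yet given, Pkp1, a plaque protein of cell junctions, had 1.59, 1.92 and 1.82 CPM with GW3965, against 9.74, 8.99 and 10.9 CPM with vehicle. Raet1e, a ligand of the NK receptor NKG2D, had 2.61, 1.45 and 1.26 CPM with GW3965, against 10.8, 10.3 and 10.1 CPM with vehicle. Both fell in all libraries, by 2.19 and 2.30 (adjusted p = 2.8e-08 and 6.1e-07). Sprr1a, Vmn2r3, Mup1, Gldn, the neurotrophin receptor Ntrk2 and the RNA-binding Rbm24 fell by 2.47, 2.40, 2.79, 2.34, 2.23 and 2.63. For Gldn, Ntrk2 and Rbm24 replicate 1 was the highest of the GW3965 libraries.

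The change in floxed livers was set against that in livers that carried Villin-Cre, where GW3965 gave 499 higher (2.85%) and 1582 lower genes (9.03%). The difference of changes passed the test above 0 in 1699 genes (9.7%) and below 0 in 1780 (10.2%). Vehicle livers of the 2 genotypes themselves differed, by 56.05 to 59.48 times the sampling variance. Scd1 fell by 1.97 in floxed livers and changed by 0.92 in Villin-Cre livers, a difference of -2.89 ± 0.10 (limma, adjusted p = 8.5e-10). Scd2 changed by -2.60 and 0.38 in floxed and Villin-Cre livers (difference -2.99, adjusted p = 5.1e-13), and Fasn by -0.65 and 0.71 (difference -1.36, adjusted p = 0.017). Abca1 was higher with GW3965 in both genotypes, by 0.49 in floxed and 0.75 in Villin-Cre livers (difference -0.27, adjusted p = 0.0033). Of the 21 fatty acid and triglyceride genes, 11 had a difference below 0 and 2 above 0. The interferon gene Ifit1 changed by 1.43 in floxed and -0.16 in Villin-Cre livers (difference 1.59, adjusted p = 5.2e-06), and 18 of 25 genes of its list differed upward and 2 downward. Cdc20 changed by -1.96 and 0.47 (difference -2.43, adjusted p = 7.7e-08), with 16 of 27 cell cycle genes below 0 and 1 above. Psat1 changed by -2.91 and -0.21 (difference -2.69, adjusted p = 1.4e-08), and Fgf21 by -2.27 and -0.04 (difference -2.24, adjusted p = 9.9e-05). By the rule for this contrast, the largest differences above 0 were Slc15a2 (3.75), Cyp2c37 (2.79), the repressor Bcl6 (2.48) and Coro6 (2.40), and the largest below 0 were Chrna4 (-3.47), Gldn (-3.07), Ntrk2 (-3.05) and Scd2. Of 33 matrix genes 16 lay below 0 and 2 above, and of 13 bile duct genes 1 lay below. Of 25 cholesterol synthesis genes 0 passed in this contrast (limma; 3 below 0 at an unadjusted p under 0.05, and 0 with voom). Without floxed GW3965 replicate 1 the counts were 3066 above 0 and 2652 below 0. With close libraries averaged 0 passed in limma, with 221 above and 296 below 0 at an unadjusted p under 0.05.

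**Figure D5:**
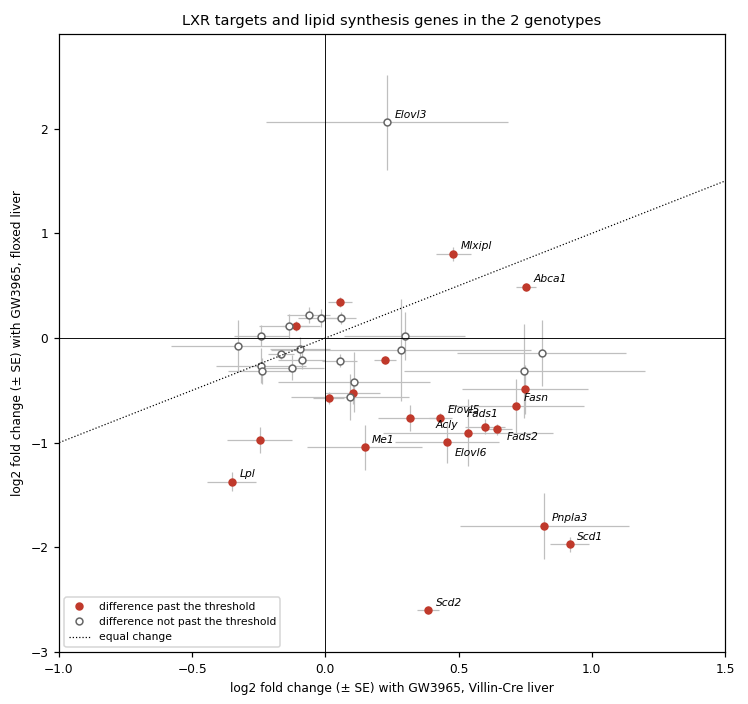
Log2 fold change with GW3965 (± SE) of LXR targets and lipid synthesis genes in floxed livers (vertical axis) and in Villin-Cre livers (horizontal axis, a shorter range); filled points passed the test of the difference and the dotted line marks equal change. Scd1, Scd2, Pnpla3 and the desaturases Fads1 and Fads2 lie below 0 in floxed livers and above 0 in Villin-Cre livers.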

How the data were processed

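Liver RNA was sequenced on a NovaSeq-6000 after ribosomal RNA removal and random priming, per the labels' protocols. Reads were aligned with STAR 2.5.1a to GRCm38 and counted with featureCounts 1.4.6-p5, per the submitters' processing notes. The annotation release and the strand setting were not given in sources used here. Log2 expression values with a floor at 0 reads were deposited by the authors. From these, CPM was recovered as 2 to the value minus 2 to the floor, and low values were whole reads (100% within 0.05 reads). Of 40757 entries 276 were exact repeats and were dropped, leaving 40481 genes. Genes with at least 0.5 CPM in 3 of the 12 liver libraries (17520) were fitted with limma 3.58.1 (R 4.3.3, trend) on log2(CPM + 0.5), with 4 group means and Benjamini-Hochberg adjusted p under 0.05. The plan named limma for log2 values and a count-based fit in case the files held counts. The files hold log2 values, so limma was used, and voom on recovered reads was an alternative. Depth was 26.4 to 32.3 M assigned reads per liver library. Group membership came from the labels. Named genes were LXR targets, up to the 12 largest changes each way in the consistent set, up to the 4 smallest p in each list, up to the 8 widest gaps between GW3965 replicate 1 and the other pair each way, and up to the 4 largest genotype differences each way; other list members were named for their role with values known, and a few genes the rule names are not reported here. The members and lists were chosen with earlier results of these data known. The fit was tested on simulated data. Other settings were another scaling, no filter, a pseudocount of 2, the deposited values, the 6 floxed libraries only, a replicate block, averaging of close libraries, and leaving out each library. Coordinates and overlaps are from GENCODE vM21 (GRCm38), which matched 99.97% of tested genes, and upstream windows from RefSeq (GRCm38.p6). Same-numbered libraries did not deviate together (correlations -0.0634 to 0.0665 over 18 pairs), so numbers pair no samples.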

Additional observations from a re-analysis of the deposited data

Results flagged for a closer look

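The change with GW3965 differed between floxed and Villin-Cre livers in the test of the difference itself (limma, adjusted p under 0.05), above 0 in 1699 genes and below 0 in 1780. Among the named genes the difference, floxed minus Villin-Cre on the log2 scale, was 3.75 for Slc15a2, 2.79 for Cyp2c37, 2.48 for Bcl6, 2.40 for Coro6 and 1.59 for Ifit1. It was -3.47 for Chrna4, -3.07 for Gldn, -3.05 for Ntrk2, -2.99 for Scd2, -2.89 for Scd1, -2.69 for Psat1, -2.43 for Cdc20, -2.24 for Fgf21, -1.36 for Fasn and -0.27 for Abca1. The 2 genotypes also differ in their vehicle levels and in the library that stands apart, GW3965 replicate 1 of the floxed livers. Without that library the change in floxed livers was -1.97 for Scd1, -2.58 for Scd2, -2.90 for Psat1 and -1.98 for Cdc20. It was -0.18 for Fasn, -2.63 for Fgf21, -2.95 for Gldn and 3.33 for Slc15a2. Genotype differences of single genes without that library are not reported here, and the part of the vehicle levels was not tested. The test for an outlying sample within a group needs 4 samples and was not applied to these groups of 3.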

How the results depend on the processing

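Of 130 named genes that passed the test, 130 passed in the same direction with a replicate block and 129 without GW3965 replicate 1. After rescaling 127 passed, with the 6 floxed libraries only 119, and with close libraries averaged 5. Many of these genes were named for a large change or a small p in the same libraries, so their calls were likely to persist by selection. Over all genes tested, 4912 of the 5265 calls were made in the same direction without replicate 1. The replicate block gave 1794 higher and 3424 lower genes and changed no call of a named gene. Counts over single left-out libraries ran from 1360 to 2733 higher and 2803 to 4090 lower; for the genotype difference they ran from 1252 to 3066 above 0 and 1421 to 2652 below 0. The upper ends, 2733 and 3066, came from leaving out floxed GW3965 replicate 1; the cause was not tested. The 6 floxed libraries alone gave 1148 higher and 2310 lower genes from fewer samples. Averaging close libraries left 3 higher and 3 lower genes, all in the consistent set (3 and 3), and 0 and 0 for the genotype difference, from 1 residual degree of freedom. With floxed GW3965 replicates 2 and 3 left out, 3066 genotype differences lay below 0. At 2-fold in place of 1.5-fold the consistent set had 84 higher and 160 lower genes.

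With 1 library left out at a time, Cyp2b9 ran from -2.58 to 1.25 and Cyp7a1 from -0.31 to 0.37, the upper ends being called and coming from leaving out GW3965 replicate 1. With replicate 1 as the only GW3965 library, assumed to vary like the libraries of the other groups, which may be technical repeats, values turned to -0.27 for Abcg5, -1.28 for Hmgcs1, -1.37 for Lss, -1.69 for Marco, -0.29 for Gdf15 and -0.76 for Vldlr. They turned to -0.56, -0.70, -0.53, -0.90 and -0.93 for Mcm2, Mcm3, Mcm4, Mcm5 and Mcm6, and to 1.40 for Cish, 2.12 for Egfros, 2.03 for Mup20, 2.49 for Onecut1 and 1.02 for Serpina12. None of these genes had passed with all libraries. Cxcl1, which had, turned to -0.30 without a call. Leaving out 1 vehicle library lost 6 or 7 of the named calls, among Acly, Apoc1, Cxcl1, Fitm1, Fsd1, Mup7 and Nr1h2. Depth limits the low genes most, for which a change of a few reads cannot be told from sampling.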
